A study of Homo sapiens with 9 samples.

Results

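ATAC-seq peaks of HEK293T cells, a human embryonic kidney line, were compared between knockouts of IGF2BP1, IGF2BP2 and IGF2BP3 and a non-targeting control, and the regions open in the IGF2BP1 and IGF2BP2 knockouts but in neither other group were examined. Peaks of the 4 deposited lists were merged into regions where they shared at least 1 bp, which gave 71597 regions. The members were chosen by presence in the lists: 5666 regions held a peak of the IGF2BP1 knockout and a peak of the IGF2BP2 knockout and no peak of the IGF2BP3 knockout or the control. These shared regions were 7.91% of all regions, 11.2% of those with an IGF2BP1 knockout peak and 9.52% of those with an IGF2BP2 knockout peak. Since presence chose them, presence is described here without a test.

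The control cells had received a CRISPR guide that targets no mammalian gene, and their list stands for 2 libraries of batches 2 and 3. Batches 1, 2 and 3 each gave a library of the IGF2BP1 knockout, which makes 3, and batches 2 and 3 gave the 2 libraries of the IGF2BP2 knockout and the 2 of the IGF2BP3 knockout. All knockouts were made by transient transfection of plasmids that do not integrate and that carry 3 guides and GFP, with no further treatment, and a single clone of each was profiled. Clone and genotype therefore cannot be told apart, and batch 1 entered the IGF2BP1 knockout alone. Each group has 1 list without values per library, so no spread between replicates could be measured and no test was made. Intervals are 95% Wilson intervals and cover counting error over regions only. In such lists, a site open in few cells and a site weakly open in many cells cannot be told apart, and a region without a peak may still be accessible below the peak caller's threshold.

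IGF2BP1, IGF2BP2 and IGF2BP3 are related RNA-binding proteins that bind mRNAs, in part at m6A-modified sites, and affect their stability, transport and translation. They are abundant in the embryo, and many tumours express them. ATAC-seq reads where the Tn5 transposase can insert into DNA, which marks active promoters and enhancers. Promoters of broadly expressed genes are usually rich in CpG and open in most cell types, whereas enhancers lie far from gene starts and are open in fewer cell types.

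The lists held 60262 peaks for the IGF2BP2 knockout, 50917 for the IGF2BP1 knockout, 44041 for the IGF2BP3 knockout and 39194 for the control. The rule thus asked for a peak in the longest lists and for none in the shortest. Lists shortened to equal length are described further on. Read depth was unknown. The cell type was checked by peaks at gene ends. Of 10 genes that HEK293T cells are known to express, 8 had such a peak in all 4 lists, and LIN28B and PAX2 had none. Of 10 genes of blood, liver, adult kidney, muscle and islets, 8 had none in any list. The liver gene APOA1 had a peak in all 4 lists and the T-cell gene CD3E in the IGF2BP1 knockout list. None of the 3, 11 and 4 regions in or within 10 kb of IGF2BP1, IGF2BP2 and IGF2BP3 was one of the shared regions.

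Promoter sequence could be read only for the few shared regions over an annotated start, 217 of 5445 (3.99%), and does not describe the others. The 10 protein-coding genes with the widest shared region over an annotated start are described further on, and 6 of their promoters are printed here: the pair with the widest peaks (PAQR6, CELF1), the pair richest in CpG (NR2E1, JARID2), an interferon-induced gene with 2 IRF motifs (GBP1), and MACF1, with an AP-1 motif. Each runs 5′ to 3′ along the gene's strand, from 250 bases before the start to 50 after it, and comes from RefSeq on GRCh38.p14. Capitals mark matches on either strand to the motifs searched, namely TGANTCA for AP-1, GAAANNGAA for IRF factors, CCGGAA for ETS factors, GGGCGG for the GC box, CCAAT for the box of that name, TATAAA for the TATA box, CACGTG for the E-box, GGAATG for TEAD factors and AGATAA for the GATA family.
PAQR6, chr1:156248007-156248306, minus strand: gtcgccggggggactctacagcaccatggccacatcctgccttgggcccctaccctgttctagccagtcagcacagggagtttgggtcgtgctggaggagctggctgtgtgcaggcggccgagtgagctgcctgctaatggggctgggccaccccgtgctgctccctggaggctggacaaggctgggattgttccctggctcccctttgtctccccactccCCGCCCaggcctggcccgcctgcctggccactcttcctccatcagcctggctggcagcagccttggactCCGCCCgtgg
CELF1, chr11:47524655-47524954, minus strand: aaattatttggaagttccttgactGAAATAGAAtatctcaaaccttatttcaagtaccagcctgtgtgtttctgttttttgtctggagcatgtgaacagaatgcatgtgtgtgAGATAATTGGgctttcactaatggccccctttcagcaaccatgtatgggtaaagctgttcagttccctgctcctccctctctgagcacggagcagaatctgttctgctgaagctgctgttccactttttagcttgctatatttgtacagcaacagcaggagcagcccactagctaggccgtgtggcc
NR2E1, chr6:108165772-108166071, plus strand: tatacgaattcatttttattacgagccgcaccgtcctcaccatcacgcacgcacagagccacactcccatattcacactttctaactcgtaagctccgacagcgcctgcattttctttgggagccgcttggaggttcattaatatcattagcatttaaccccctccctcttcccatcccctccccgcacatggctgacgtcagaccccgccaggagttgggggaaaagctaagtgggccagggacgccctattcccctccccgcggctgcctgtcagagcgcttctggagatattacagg
JARID2, chr6:15248605-15248904, plus strand: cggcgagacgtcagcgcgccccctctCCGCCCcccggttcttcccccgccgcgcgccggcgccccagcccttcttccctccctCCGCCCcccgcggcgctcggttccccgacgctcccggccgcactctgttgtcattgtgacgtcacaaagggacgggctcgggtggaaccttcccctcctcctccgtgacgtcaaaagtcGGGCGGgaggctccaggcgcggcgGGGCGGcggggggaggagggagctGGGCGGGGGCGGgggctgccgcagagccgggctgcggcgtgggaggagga
GBP1, chr1:89065159-89065458, minus strand: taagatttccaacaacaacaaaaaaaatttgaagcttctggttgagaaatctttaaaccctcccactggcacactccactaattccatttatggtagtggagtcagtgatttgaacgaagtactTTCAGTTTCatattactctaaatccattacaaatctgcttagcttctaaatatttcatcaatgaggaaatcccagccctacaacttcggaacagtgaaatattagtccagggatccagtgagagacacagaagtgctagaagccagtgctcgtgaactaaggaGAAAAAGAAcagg
MACF1, chr1:39204445-39204744, plus strand: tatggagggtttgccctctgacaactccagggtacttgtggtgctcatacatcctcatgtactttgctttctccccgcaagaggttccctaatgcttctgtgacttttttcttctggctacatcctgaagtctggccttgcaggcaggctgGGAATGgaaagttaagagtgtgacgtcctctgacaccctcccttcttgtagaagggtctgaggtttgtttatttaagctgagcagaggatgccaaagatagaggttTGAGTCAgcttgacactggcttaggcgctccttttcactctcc

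The PAQR6 sequence holds 2 GC boxes, 29 bases before and 40 bases after the start. CELF1 has an IRF match 226 bases before the start and a GATA match that overlaps a CCAAT box. NR2E1 holds none of the 9 motifs, although its ratio of observed to expected CpG is 0.8065. JARID2 has 6 GC boxes, of which a pair stands at the start itself. In GBP1, an IRF match begins 126 bases before the start on the opposite strand and another 37 bases after it. MACF1 has a TEAD match 99 bases before the start and an AP-1 match 7 bases after it. Of the promoters not printed, those of SRPK2 and ARHGEF6 also have an IRF match. A match describes the letters and not a bound factor.

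The shared regions were mostly narrow peaks that coincided in the knockouts. In 5635 of the 5666, each knockout contributed 1 peak. The peaks overlapped by at least 50% of the narrower one in 5648 regions (99.7%), and in 3436 (60.6%) the narrower peak lay wholly within the wider. In the IGF2BP1 knockout their widths ran from 257 to 2359 bp with a median of 649.5 bp, against 834 bp over that whole list. In the IGF2BP2 knockout they ran from 230 to 1996 bp with a median of 518 bp, against 651 bp. Only 24.6% and 26.5% exceeded the median of their list. The rule itself required the peaks to meet, and these overlaps and median widths are not given here for other sets of regions. The IGF2BP1 knockout peak was the wider in 74.4% of shared regions, with a median ratio of 1.20, and in 75.7% of the regions present in all 4 lists, with a median ratio of 1.10. With each list shortened to its widest 39194 peaks, 2145 regions met the rule, of which 1906 were among the 5666.

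**Figure D1:**
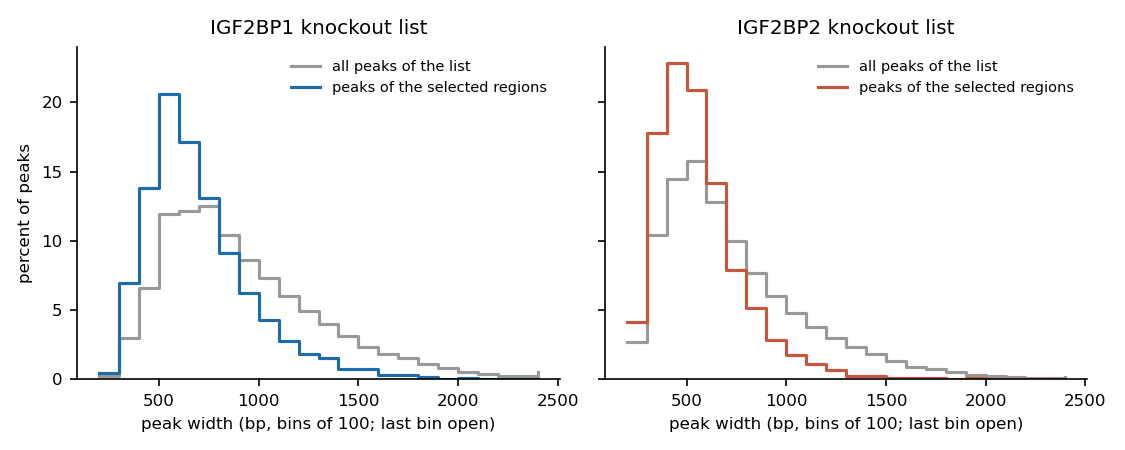
Distribution of peak widths in bins of 100 bp (x axis, bp) as a percent of peaks (y axis), for all peaks of a list in grey and for those in the shared regions in colour, in the IGF2BP1 knockout (left) and the IGF2BP2 knockout (right). The coloured curves peak at lower widths, with medians of 649.5 against 834 bp and 518 against 651 bp.

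A small part was wide. In 762 regions (13.4%) both peaks exceeded their list's median, and in 21 (0.371%, interval 0.243 to 0.566%) both were in the widest 10% of their list. The same held for all peaks of 3 of 2507 regions confined to the IGF2BP2 and IGF2BP3 knockouts, 1 of 949 confined to the IGF2BP1 and IGF2BP3 knockouts, and 4 of 4925 in all 3 knockouts but not the control (0.0812%, interval 0.0316 to 0.209%), where 3 peaks and not 2 had to qualify.

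Most shared regions were more than 10 kb from any peak of the groups that lacked them, a distance not given here for other sets. The median distance was 25.4 kb to the nearest control peak and 22.5 kb to the nearest IGF2BP3 knockout peak. To the nearer of these it was 18.8 kb, with 3880 regions (68.5%) beyond 10 kb and 162 (2.86%) within 1 kb. The closest were chr4:118398080-118399036, 16 bp from such a peak, chr4:108118019-108118975 at 34 bp and chr20:63979594-63980422 at 99 bp. Just on the other side of the rule, chr4:108350291-108351178 was left out for an overlap of 19 bp, chr6:110688725-110690025 for 21 bp and chr13:43363684-43365268 for 42 bp. Such cases were few: 2 members had a gap of at most 50 bp, and of 38301 regions that both knockouts shared with another list, 3 were joined to it by at most 50 bp. To the nearest region in all 4 lists the median distance was 33.3 kb. It was similar for the other knockout pairs, 35.4 kb for IGF2BP2 with IGF2BP3 and 32.2 kb for IGF2BP1 with IGF2BP3.

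The shared regions lay mainly away from gene ends. Of 5666, 666 (11.8%, interval 10.9 to 12.6%) were within 1 kb of the start or end of a gene, against 27.0% of all regions and 48.3% of the regions in all 4 lists. The other knockout pairs had similar shares, 10.3% for IGF2BP2 with IGF2BP3 and 14.0% for IGF2BP1 with IGF2BP3, and regions in all 3 knockouts but not the control had 13.7%. Seen from the other side, 3.45% of 19306 regions at gene ends were members, and 9.56% of the 52291 elsewhere. Protein-coding genes contained 47.2% of the shared regions, genes for long non-coding RNA alone contained 14.2%, and 38.6% were outside both. A further measure, more than 100 kb from any protein-coding gene, applied to 1200 (21.2%), compared with 17.5% of all regions and 32.2% of those confined to the IGF2BP2 and IGF2BP3 knockouts.

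The 12 widest, ranked by the narrower of their peaks among 5504 regions at least 1 kb from a control or IGF2BP3 knockout peak, show what the strongest members by width looked like. Width was used for the rank because the lists hold no height or score. The first was chr20:50284498-50286856, with peaks of 2359 bp in the IGF2BP1 knockout and 1889 bp in the IGF2BP2 knockout, and its nearest protein-coding gene, 91.8 kb away, was CEBPB, a leucine zipper transcription factor. The next was chr1:61253271-61255266, with peaks of 1835 and 1996 bp, inside NFIA, a transcription factor of glial development, and inside the non-coding NFIA-AS1. Its nearest control or IGF2BP3 knockout peak was 82.5 kb away. At chr9:72900838-72902533 the peaks measured 1632 and 1584 bp and lay inside ALDH1A1, which makes retinoic acid from retinal, 0.167 kb from the gene's end. This was the only region of any list in or within 10 kb of ALDH1A1.

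Of the 12, 7 lay in protein-coding genes. Besides NFIA and ALDH1A1, these were CACNA2D3, an auxiliary calcium channel subunit (chr3:54999124-55000919, 1695 and 1789 bp), PAQR6, CELF1, NKAIN2 (chr6:124007770-124009611, 1506 and 1842 bp) and NAV2, a neuron navigator (chr11:19398277-19399965, 1566 and 1438 bp). The others lay outside protein-coding genes. The region chr2:223537769-223539541 was 57.4 kb from SCG2, a secretory granule protein, and chr3:178083963-178085737 was 450.7 kb from KCNMB2, a potassium channel subunit, and 450.5 kb from the nearest control or IGF2BP3 knockout peak. The region chr2:224677900-224679738 lay in the non-coding LOC105373910 and chr6:20312747-20314746 in the non-coding LOC101928573.

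Annotated starts were rarely covered. On the chromosomes with entries in the promoter table, 217 of 5445 shared regions (3.99%) overlapped a promoter, covering 244 promoters. A start lay within 1 kb of 5.40% of shared regions, against 19.6% of all regions and 39.4% of those in all 4 lists. The other knockout pairs were also low, at 4.04% for IGF2BP2 with IGF2BP3 and 7.22% for IGF2BP1 with IGF2BP3. Of 15843 protein-coding genes with an entry, 129 (0.814%) had a start under a shared region, and 100 genes for long non-coding RNA did. Of the 129, 38 (29.5%) had another start under a region present in all 4 lists, and 90 had no start under a control or IGF2BP3 knockout peak.

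Among the 10 with the widest such region, PAQR6, a membrane progesterone receptor, had peaks of 1562 bp in the IGF2BP1 knockout and 1606 bp in the IGF2BP2 knockout over its only listed start. CELF1, a regulator of splicing and mRNA decay, had 1543 and 1520 bp, with another start, 28.4 kb away, open in all 4 lists. For NR2E1, an orphan nuclear receptor of neural stem cells, the peaks were 1258 and 1187 bp, and for GLRA1, the glycine receptor subunit, 1438 and 1132 bp. Neither gene had a start open in all 4 lists. JARID2, a cofactor of Polycomb complex PRC2, had 1101 and 1214 bp at the start printed above, and a start 2.79 kb away was open in all 4 lists.

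The remaining 5 divided in the same way. SRPK2, a kinase of splicing factors, had peaks of 990 and 945 bp, MACF1, which links actin to microtubules, 1132 and 912 bp, and ARHGEF6, an exchange factor for small GTPases, 1186 and 909 bp. Each of these had another start open in all 4 lists, 119.9, 204.4 and 13.1 kb away. GBP1, an interferon-induced GTPase, had 912 and 1315 bp, and its nearest control peak was 39.1 kb away. TRMT1, a tRNA methyltransferase, had 941 bp in each, and a control peak stood 0.694 kb away. In those of the 10 genes with several listed starts, the shared region thus covered some and not all of them. Among the 129 genes this did not always hold, since both starts of TLE5, LSMEM1, LIN54 and IFNL3 were covered. Expression was not measured here.

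**Figure D2:**
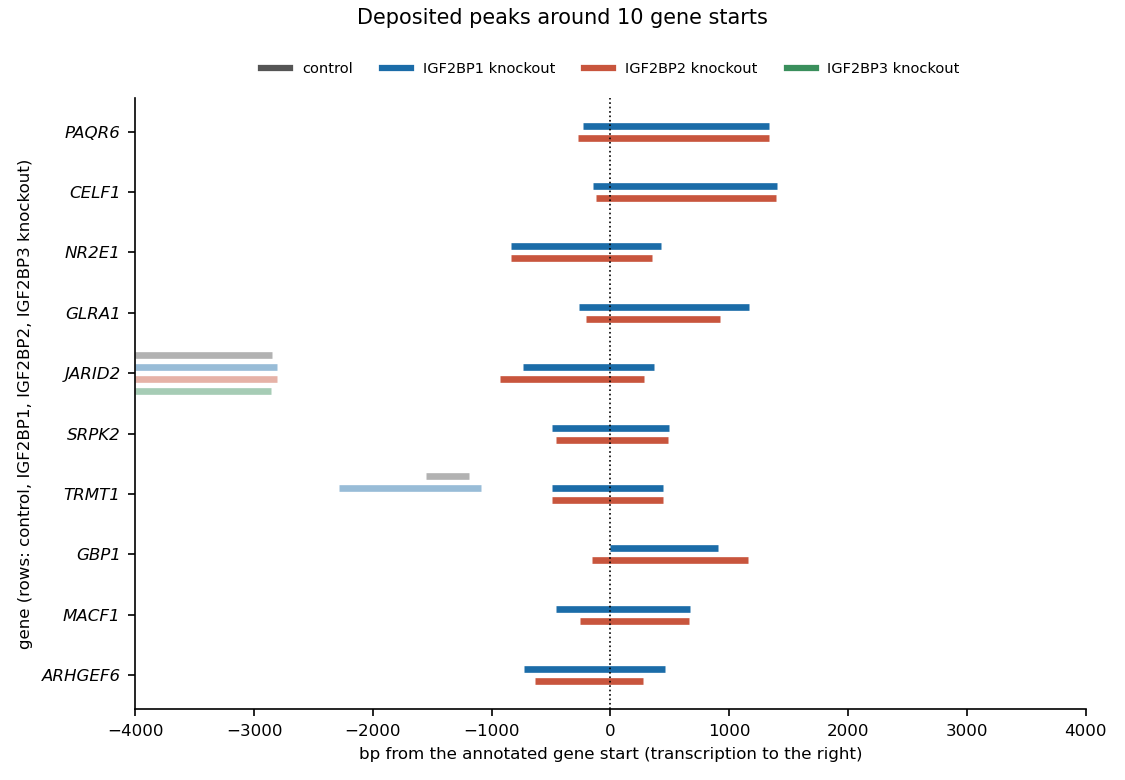
Deposited peaks (bars) around 10 gene starts (x axis, bp from the start, transcription to the right), with a row for each of the 4 lists per gene. Dark bars are the peaks of the shared regions, which cover every start, and pale bars are other peaks; those of JARID2 run past the left edge.

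The covered promoters were poorer in CpG than promoters open in all 4 lists. The median ratio of observed to expected CpG was 0.357 over the 244 promoters, 0.843 over 16368 promoters open in all lists, 0.579 over all 35097 promoters and 0.241 over 16951 under no region. The ratio exceeded 0.6 in 31.1% (interval 25.7 to 37.2%), 86.5%, 48.8% and 13.2% of them. For 313 promoters open in all 3 knockouts but not the control it did so in 43.5%. The shared regions' promoters thus lay between those of closed and of commonly open starts.

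**Figure D3:**
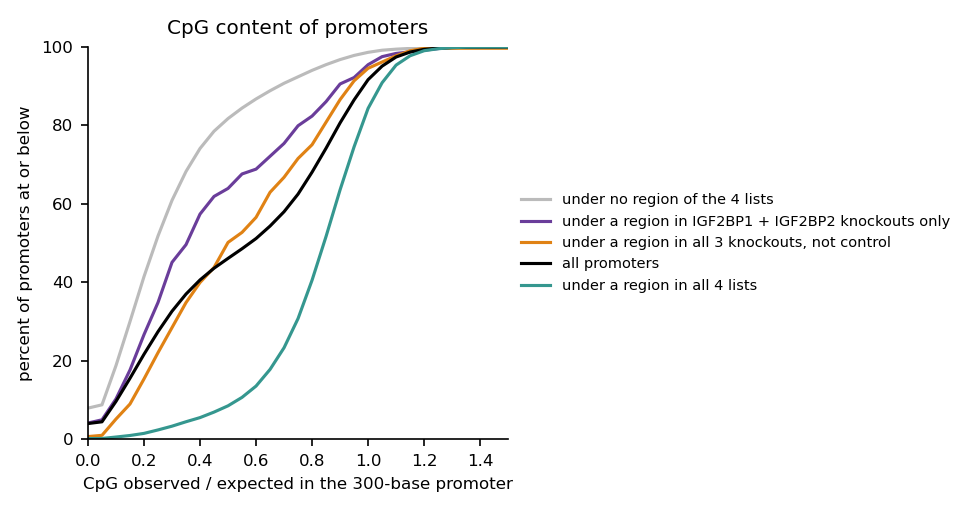
Cumulative percent of promoters (y axis) at or below a given ratio of observed to expected CpG in 300 bases (x axis), for 5 sets of promoters. The purple curve of the 244 promoters under shared regions runs below the grey curve of promoters under no region and far above the teal curve of promoters open in all 4 lists, with 31.1%, 13.2% and 86.5% above 0.6.

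Motifs rich in G and C were less frequent than in commonly open promoters, and the AP-1 motif was more frequent. The GC box occurred in 30.7% of the covered promoters (interval 25.3 to 36.8%), against 72.5% of those open in all lists and 44.9% of all promoters. The ETS motif occurred in 9.84%, 28.8% and 17.3%. The AP-1 motif stood in 17.2% (interval 13.0 to 22.45%), compared with 3.81% of promoters open in all lists, 7.71% of all promoters and 11% of those under no region. Its share was 15.0% where all 3 knockouts but not the control had a region and 23.04% where the IGF2BP2 knockout alone did, so it was not highest in the shared regions. The other motifs were nearer the share over all promoters, with IRF at 10.2% against 8.11%, GATA at 10.2% against 10.3%, TEAD at 18.0% against 14.0%, TATA at 11.9% against 11.5%, CCAAT at 28.3% against 34.6% and the E-box at 4.92% against 7.25%. Across these sets the GC box share rose with the median CpG ratio, while the AP-1 share did not follow it throughout. Promoters under no region had the lowest median ratio, 0.241, with AP-1 in 11%. Those open in the IGF2BP2 knockout alone had 0.273, with AP-1 in 23.04%. The part of CpG content in these shares was not tested.

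The shared regions were spread unevenly over chromosomes. They made up 13.2% of the regions of chromosome 2 (706 of 5354, interval 12.3 to 14.1%), 11.2% of chromosome 4 and 10.2% of chromosome 18. The share was 3.80% on chromosome 11 (110 of 2892) and 2.27% on chromosome 17 (62 of 2730, interval 1.78 to 2.9%), and the median over 23 chromosomes was 7.59%. At gene ends alone the share was 4.86% on chromosome 2 and 0.765% on chromosome 17. The lists themselves varied in the same places. The IGF2BP3 knockout list held 45.4% of the regions of chromosome 2 but 60.8% of all regions. On chromosome 17 the IGF2BP3 knockout list held 75.5% and the control list 67.2%, against 60.8% and 54.2% of all regions, and the IGF2BP1 knockout list held 65.5% against 70.9%. The IGF2BP2 knockout list held 69.8% of the regions of chromosome 11 but 83.1% of all. The part of these differences, or of chromosome copy number, in the distribution was not tested. In the shortened lists chromosome 2 had 7.08% and chromosome 17 0.722%, against 3.68% over all regions.

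**Figure D4:**
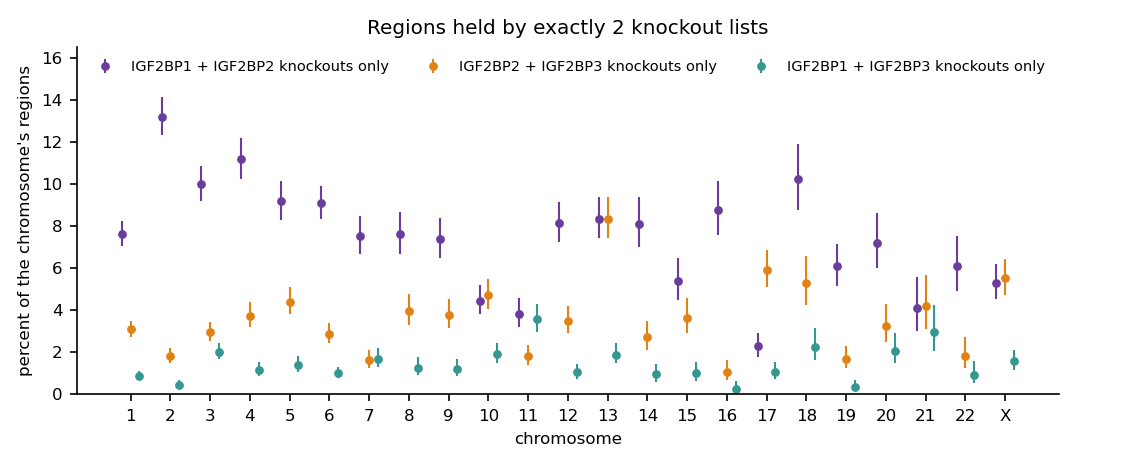
Percent of each chromosome's regions (y axis) held by exactly 2 knockout lists, for the 3 pairs of knockouts, with 95% Wilson intervals over regions. The IGF2BP1 and IGF2BP2 pair (purple) is highest on chromosome 2 at 13.2% and lowest on chromosome 17 at 2.27%; on chromosome 13 it meets the IGF2BP2 and IGF2BP3 pair, with 262 regions each.

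The distribution changed across the edited IGF2BP2 gene on chromosome 3. In the 10 Mb below the gene's lower coordinate (chr3:185643130-185825042 is the gene), 30 of 224 regions were shared ones (13.4%, interval 9.55 to 18.5%). In the 10 Mb above it, 2 of 196 were (1.02%, interval 0.280 to 3.64%). The IGF2BP2 knockout list held 85.7% of the regions below the gene and 42.3% of those above. These shares were 67.4% and 90.3% for the IGF2BP1 knockout list. They were 48.7% and 64.8% for the IGF2BP3 knockout list and 42.4% and 52.0% for the control list. These stretches border the edited gene and were chosen after their values were seen, and what sets the change was not tested.

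Neighbouring shared regions occurred together somewhat more often than their overall frequency. The next region along the chromosome was also a shared one in 555 of 5650 cases (9.82%, interval 9.07 to 10.6%), 1.24 times their share of 7.94% on these chromosomes. The ratio was 1.67 for the IGF2BP2 and IGF2BP3 pair, 1.58 for the IGF2BP1 and IGF2BP3 pair and 1.27 for regions in all 3 knockouts but not the control, so of these 4 sets the shared regions had the lowest. Of the uninterrupted runs, 4596 had 1 region, 449 had 2, 44 had 3 and 6 had 4. The shortest run of 4, chr2:113211396-113249631, spanned 38.2 kb at PAX8, a transcription factor of kidney development. The first region of this run was outside PAX8, 3.05 kb from it and 2005 bp from PSD4. Of the 5 regions in or within 10 kb of PAX8, 4 were shared ones, with widths of 555 to 1553 bp in the IGF2BP1 knockout and 310 to 1202 bp in the IGF2BP2 knockout. Another run, chr9:121861312-121922075, lay in TTLL11, a tubulin polyglutamylase.

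In windows of 1 Mb, 2178 of 2897 windows with any region had a shared one, and 287 windows with 5 or more contained 1693 (29.96%). The highest count was 11, in 3 windows. On chromosome 2 at 189 to 190 Mb, 11 of 33 regions were shared ones, around the fibrillar collagen genes COL3A1 and COL5A2. On chromosome 6 at 139 to 140 Mb it was 11 of 50, a window with CITED2, a transcriptional coregulator, and on chromosome 3 at 71 to 72 Mb 11 of 60, around FOXP1. A count of 10 was reached in 6 windows, among them chromosome 5 at 34 to 35 Mb (10 of 28, with RAI14), chromosome 1 at 101 to 102 Mb (10 of 31, with S1PR1 and OLFM3) and chromosome 13 at 86 to 87 Mb (10 of 57), which has no protein-coding gene. Windows were ranked by this count, so the counts are a description.

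Of 20037 protein-coding genes, 2042 (10.2%) contained a shared region, and 2803 (14.0%) had one in the gene or within 10 kb. The share followed gene length: 1.23% of genes under 10 kb, 5.21% of those of 10 to 50 kb, 17.6% of those of 50 to 200 kb and 49.5% of 1399 genes over 200 kb contained one. Counted over regions, 2.01, 4.07, 6.79 and 9.65% of the regions in genes of these lengths were shared ones. Long genes therefore had both more regions and a larger part of them in the shared set. With 4 or more shared regions there were 49 genes, of which 48 were over 200 kb long. In the shortened lists 852 genes contained a shared region.

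The 8 genes with the highest counts all had gene table entries over 200 kb long. In GALNTL6, of the family that starts mucin-type glycosylation, 13 of 42 regions (31.0%) were shared ones, and peaks of the control, IGF2BP1, IGF2BP2 and IGF2BP3 lists stood in 10, 33, 37 and 16 of those 42. The 13 were 424 to 1683 bp wide in the IGF2BP1 knockout and 278 to 1323 bp in the IGF2BP2 knockout. In NKAIN2, a partner of the sodium pump, it was 10 of 43. The forkhead transcription factor FOXP1 had 9 of 48, with 575 to 1551 bp and 574 to 894 bp.

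Counts of 8 were found in WWOX, an oxidoreductase at a fragile site (8 of 31), and ROBO1, the receptor for SLIT guidance cues (8 of 37). Counts of 7 were found in 5 genes, of which the 3 shortest are named. RARB, a retinoic acid receptor, contained 7 of 38 and the protocadherin PCDH9 7 of 90. RANBP2 had 7 of 48, in a table entry of 1123 kb that spans 6 other protein-coding genes. That entry begins at chr2:108719482, and its 7 shared regions lay at chr2:109102757 or beyond. Whether they belong to RANBP2 or to those other genes was not resolved. In PCDH9 the share of 7.78% was near the 7.07% of regions in or within 10 kb of protein-coding genes, so its count went with its many regions. In GALNTL6 and WWOX the control held a peak in 10 of 42 and 12 of 31 regions.

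**Figure D5:**
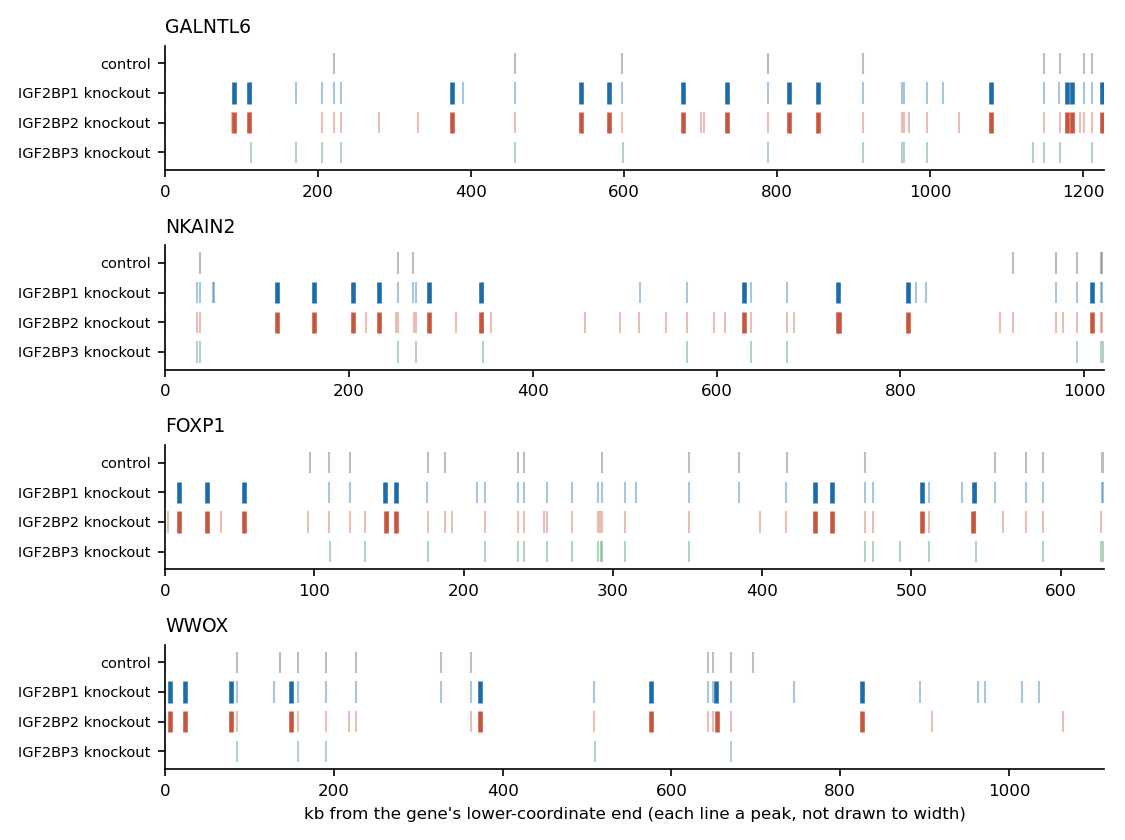
Peaks of each list (vertical lines, not drawn to width) along GALNTL6, NKAIN2, FOXP1 and WWOX (x axis, kb from the gene's lower-coordinate end). Thick dark lines are the shared regions, 13, 10, 9 and 8 in number, spread along each gene body.

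Gene lists were compared with 14.0% of all protein-coding genes having a shared region in the gene or within 10 kb, and with 7.07% of the 44916 regions there being shared ones. The share of genes follows gene length steeply. That of regions does so less, from 2.01% in genes under 10 kb to 9.65% in those over 200 kb. The share of regions is therefore the closer reference, but 7.07% is a rough one for lists of long or short genes. Extracellular matrix and integrin genes had one in 28 of 72 genes, and 42 of 448 regions (9.38%) were shared ones. Examples were ADAMTS18, a secreted metalloproteinase (chr16:77335753-77337293, 1384 and 1531 bp), COL21A1 (chr6:56387573-56388592, 1020 and 977 bp) and COL5A2, with 5 of 13 regions. LAMA2, a laminin chain of basement membranes, had 6 of 28. The list's share thus rests in part on COL5A2 and LAMA2. The list's median gene length was 158.3 kb, against 24.1 kb over all genes. Of the regions in genes of 50 to 200 kb, 6.79% were shared ones, and of those in genes over 200 kb, 9.65%.

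Developmental transcription factors gave counts close to or above the same reference. For those of kidney development it was 7 of 30 genes and 12 of 123 regions (9.76%). PAX8 gave 4 of these regions and MECOM 3 of its 31. PAX2 (chr10:100803640-100804509, 753 and 860 bp) gave 1 of 6, and with so few regions the share rests largely on PAX8. Neural transcription factors had 13 of 57 genes and 28 of 344 regions (8.14%). FOXP1 gave 9 of these from its 48 regions, so the share rests in part on a gene named above for its high count. Also among them were NFIA with 4 of 21 and OTX2 (chr14:56807460-56808713, 1247 and 978 bp), whose single region was a shared one. Synaptic adhesion and axon guidance genes had the highest count, 31 of 73, with a median length of 544.9 kb. By regions their share was 8.49%, 76 of 895, below the 9.65% of regions in genes over 200 kb. Examples lay in LSAMP (chr3:115861458-115863394, 1867 and 1262 bp) and LRRTM4 (chr2:77092274-77093617, 1194 and 1233 bp), both of neuronal adhesion.

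Haematopoietic and leukaemia stem cell genes had 11 of 40 genes and 6.55% of regions, among them ALDH1A1, CD38 and MEIS1. For WNT, BMP, TGF-beta and FGF signalling it was 20 of 90 genes and 6.88% of regions. The receptor ROR1 (chr1:63980668-63981685, 936 and 939 bp) and the ligand WNT7B (chr22:45934351-45935429, 1079 and 908 bp) had the widest of these. AP-1, TEAD and Hippo pathway genes had 6 of 35 genes and 5.52% of regions, with WWTR1, which encodes the coactivator TAZ, at 2 of 5. These shares were near or below 7.07%.

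The 4 innate immune lists had few shared regions, at shares near or below 7.07%. Cytosolic nucleic acid sensors and their adaptors had 4 of 38 genes and 5.00% of regions: TREX1, a DNA exonuclease (chr3:48465345-48466066, 711 and 695 bp), NLRP3, an inflammasome sensor (chr1:247447994-247448683, 690 and 461 bp), and the adaptors TRAF3 and MYD88. The interferon list had 6 of 61 genes and 4.69% of regions, among them GBP1, MX2 and SAMD9. For the NF-kappaB pathway it was 5 of 30 genes and 6.67%, with 2 regions in NFKB1, and for cytokines and chemokines 3 of 41 and 5.88%, namely IFNL3, IL15 and CXCL9. The counts are small, from 3 to 6 genes a list, and nothing is read from these shares.

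For genes tied to the edited proteins the shares were also below 7.07%. The IGF2BP family with oncofetal genes had 5 of 26 genes and 6 of 116 regions (5.17%), of which 2 lay in IGF1R, the receptor of the IGF pathway (chr15:98699611-98700693, 1083 and 713 bp, the wider). Of 19 writers, erasers and readers of m6A, FTO, a demethylase, alone had any, 2 of its 12 regions. The 75 genes of cytosolic ribosomal proteins, which are short and have promoters open in most cells, had 2, at RPL19 and RPL36, and 1.13% of regions.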

How the data were processed

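ATAC-seq peaks of HEK293T cells were analysed from 4 deposited lists, 1 per group, standing for 9 libraries. Per the submitters' processing notes, the tools named were fastp 0.24.1, BWA 0.7.17, MACS2 3.0.0 and bedtools, on build GRCh38. The peak threshold, any shift of reads for the transposase and how the libraries of a group became a single list are not given in the sources used here. The deposited columns are a chromosome, start and end, with no count, score or p-value, so depth was unknown and a more permissive list holds more narrow peaks.

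Regions were merged, classed by list and described with Python 3.11.15, numpy 2.4.6, pandas 2.3.3, scipy 1.17.1 and matplotlib 3.10.9, and the classing was tested on simulated data. Groups came from the sample titles. Gene positions came from a RefSeq table of GRCh38.p14 that gives the start and end of 20037 protein-coding genes without exons, so exonic and intronic positions were not separated. Starts, strands and 300-base promoters came from RefSeq's promoter table, which matched 27305 genes. On opposite strands, 3090 of 3090 overlapping promoters had matching letters. No test was made, because each group is a single list. Of 688 symbols over 14 gene lists, 1 was not matched.

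The members, the gene lists and the motifs were chosen with earlier results of these data known. Named items were fixed by rule: the 12 widest members at least 1 kb from the other lists, the 8 genes containing most members (ties by shorter gene), the 10 genes with the widest member over a start, up to 4 genes a list by width (some of these are not reported here), the 1 Mb windows with most members, with ties, and the targeted genes. LAMA2, the genes with both starts covered, the stretches around IGF2BP2 and the runs were chosen after their values were seen. Alternatives covered the overlap, merging, trimming, list length, distance, chromosomes and gene-end distance.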

Additional observations from a re-analysis of the deposited data

How the results depend on the processing

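No paired analysis was possible because each group is 1 pooled list with no columns per library, and for the same reason no library could be left out. Over 8 alternative settings, 34 values of the main comparisons stayed within their interval or within 1.5 times, and 9 did not. Counting gene ends within 500 bp gave 8.79% and within 2 kb 17.5%, by construction. Trimming every peak to 200 bp gave 11.5% on chromosome 2, where the share over all regions was 7.11%, and it leaves no median width to compare. Shortening each list to its widest 39194 peaks left 2145 shared regions in place of 5666, of which 1906 were among the original ones. With these, 13.1% lay at a gene end, the median width of the merged regions was 907 bp in place of 695 bp, chromosome 2 had 7.08% and chromosome 17 0.722% against 3.68% over all regions, and 852 protein-coding genes contained one. Chromosome 2 was then 1.92 times the overall share, against 1.67 times in the full lists, and chromosome 17 0.196 against 0.287 times. Shortened lists also left 4 regions in NKAIN2, 5 in WWOX, 4 in ROBO1 and 4 in RANBP2. The region at TRMT1 left the set when 1 kb from other lists was required, and chr6:20312747-20314746 when peaks were trimmed; the other 174 of 180 values for named genes and regions moved less. Depth and the height of peaks are unknown, so a region missing from a list may have been just under its threshold.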

Other observations

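Hairpins of microRNAs were compared with the shared regions as well. Of 1562 hairpins in the RefSeq table for GRCh38.p14, 7 overlapped one: MIR4798, MIR4276, MIR4645, MIR615, MIR8073, MIR5189 and MIR361. How many hairpins lay under any region of the lists is not given here. The count therefore cannot show whether shared regions covered hairpins more or less often than other regions did. The MIR615 hairpin, at chr12:54033950-54034045, lay wholly inside the region chr12:54032499-54034160, and those of MIR8073 and MIR361 were only partly covered. The mature microRNAs were not measured, and a shared region over a hairpin does not show which transcript its opening concerns.

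Outside the 23 chromosomes, 16 shared regions lay on 14 unplaced or alternative sequences, out of 390 regions on such sequences.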
